A study of Mus musculus with 16 samples.

Results

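The 41 genes described here encode guidance ligands (17 semaphorins, 3 Slits and 2 netrins) and their receptors (9 plexins, 2 neuropilins, 3 Robos, the netrin receptor Dcc and 4 Unc5 receptors). They were taken by gene symbol from the annotation of the array, and 39 of them had a transcript cluster (the probe set that stands for 1 gene) annotated to that gene alone, of 30743 genes in all. The clusters of Sema4a and Nrp1 are also annotated to a microRNA gene and were not analysed here. Each of the 39 had 1 cluster. Of the 39, 21 are ligands and 18 are receptors, and 37 passed a filter that left out the third of genes with the lowest mean level. Sema3g and Robo3 lay under it.

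Parvalbumin interneurons, the fast-spiking inhibitory cells of cortex and striatum, were sorted by fluorescence from male C57BL/6J mice aged 30 days, with 2000 cells from a pool of 2 to 4 mice behind each array. The groups were PVCre/+; tdTomato/+ mice in dorsal striatum, the same genotype in motor and somatosensory cortex, PV-tdTomato/+ mice in dorsal striatum, and PV-tdTomato/+ mice in motor and somatosensory cortex, with 4 arrays in each. All groups carry tdTomato, and both lines are heterozygous. In PVCre mice a recombinase expressed with parvalbumin switches the reporter on, so a cell that expressed it once stays labelled, whereas in PV-tdTomato mice parvalbumin regulatory sequence drives the fluorescent protein directly. Cells were pooled over animals, and the labels do not say whether pools of the 2 regions share mice.

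Semaphorins are secreted or membrane-bound proteins that steer growing axons and, later, shape synapses. The secreted class 3 members mostly act through a neuropilin that binds the ligand and a plexin that carries the signal, while most membrane-bound members bind plexins directly. Slits are secreted repellents read by Robo receptors, and netrins attract axons through Dcc and repel them through Unc5 receptors. In the mature brain these genes are expressed by neurons and also by cells of the oligodendrocyte lineage, vessels and meninges.

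Levels are log2 values after robust multi-array averaging (RMA), and a difference of 1 is a doubling. Because probes differ in brightness, levels were compared between arrays for 1 gene and never between genes. The highest mean of the 23 antigenomic background probe sets was 6.10, and a value at or under it was read as within background. Pvalb itself was between 10.2 and 12.48 in 10 arrays but between 6.69 and 8.4 in PV-tdTomato replicates 3 and 4 of both regions and in PVCre cortex replicates 2 and 4. The female transcript Xist was above 12 in 6 of 8 PVCre arrays and 2 of 8 PV-tdTomato arrays, although all mice were labelled male. Oligodendrocyte marker genes were bright in every group, with array means from 12.58 to 15.25 over the 9 of 10 listed markers on the array. The distance between positive and negative control probe sets was 3.08 to 3.93 in PVCre arrays, against 4.16 to 4.85 in PV-tdTomato arrays, so that it did not overlap between the lines.

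The 4 genes that differed between striatum and cortex were all semaphorins: Sema3c and Sema3e in the PV-tdTomato line, and Sema5a and Sema4f in the PVCre line. The 250 bases upstream of their start sites are shown because the genes of each pair moved in the same direction, with sequences and coordinates from RefSeq on GRCm38.p6, each written 5′ to 3′ on the strand of the gene. Capitals mark matches, on either strand, to the GC box GGGCGG and the CCAAT box; the letters TATAAA and CACGTG were searched for as well and occur in none of the 4 windows.
Sema3c, chr5:17574566-17574815, plus strand: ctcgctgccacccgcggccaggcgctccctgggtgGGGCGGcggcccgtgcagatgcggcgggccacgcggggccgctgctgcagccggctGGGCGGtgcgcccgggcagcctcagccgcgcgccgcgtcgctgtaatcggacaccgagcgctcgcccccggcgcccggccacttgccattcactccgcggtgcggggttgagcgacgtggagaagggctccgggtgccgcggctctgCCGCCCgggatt
Sema3e, chr5:14025026-14025275, plus strand: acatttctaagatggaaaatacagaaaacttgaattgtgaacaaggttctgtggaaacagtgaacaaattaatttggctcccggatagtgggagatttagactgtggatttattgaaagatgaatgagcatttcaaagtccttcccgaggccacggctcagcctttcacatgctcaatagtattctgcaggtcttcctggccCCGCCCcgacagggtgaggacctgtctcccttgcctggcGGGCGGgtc
Sema5a, chr15:32244563-32244812, plus strand: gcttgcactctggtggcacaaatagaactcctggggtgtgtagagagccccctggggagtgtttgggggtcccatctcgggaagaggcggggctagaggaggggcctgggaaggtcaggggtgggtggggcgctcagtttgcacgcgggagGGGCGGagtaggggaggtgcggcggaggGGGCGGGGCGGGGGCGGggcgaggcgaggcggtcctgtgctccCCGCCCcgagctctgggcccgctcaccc
Sema4f, chr6:82939770-82940019, minus strand: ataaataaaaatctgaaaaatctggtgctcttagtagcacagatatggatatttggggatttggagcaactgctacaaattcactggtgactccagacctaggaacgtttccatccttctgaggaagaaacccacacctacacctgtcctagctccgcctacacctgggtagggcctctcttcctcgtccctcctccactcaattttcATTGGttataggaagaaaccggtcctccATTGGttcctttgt
The Sema3c window is 78.4% G and C with 39 CpG dinucleotides and holds 3 GC boxes, and the Sema5a window is 72.0% G and C with 17 CpG dinucleotides and 5 GC boxes, some of which overlap. Sema3e, at 48.0% G and C with 7 CpG dinucleotides, has 2 GC boxes, and Sema4f, at 46.0% with 4, has 2 CCAAT boxes and no GC box. GC boxes are in 32.7% and CCAAT boxes in 33.8% of the 32851 promoter windows of the same length in the RefSeq table, whose median G and C content is 52.4%. Of the 41 genes, 33 have an entry in that table, with 44 windows between them, and a GC box is in 29 of those and a CCAAT box in 7. Sema3c and Sema3e both lie on chromosome 5, as do Sema3a, Sema3d and Slit2, which were not called between regions in the main fit. These matches describe letters and show no binding.

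The first comparison asked where the striatal and cortical cells of each line differ. In the PV-tdTomato line the secreted semaphorins Sema3c and Sema3e were lower in striatum, and no gene of the set was higher. Sema3c, a class 3 ligand that repels or attracts axons depending on the neuron, was at 7.84, 8.89, 6.97 and 7.01 in PV-tdTomato striatum, against 13.01, 13.04, 10.35 and 10.72 in PV-tdTomato cortex. Every striatal array was below every cortical one, and replicates 3 and 4 of the cortex, which also have low Pvalb, were the lower cortical arrays. The difference was -4.10 ± 0.61 (SE, n = 4 arrays per group, adjusted p = 0.0011 by limma over 20495 genes), which is 17.15-fold lower. Sema3e, whose product binds Plxnd1 without a neuropilin, was at 7.17, 7.08, 7.33 and 7.10 in striatum, against 8.82, 9.0, 8.0 and 8.27 in cortex. Here too the groups did not overlap, and the striatal arrays were close together. Its difference was -1.35 ± 0.22 (SE, adjusted p = 0.0021), or 2.56-fold lower. Whether there were fewer cells of a type or less RNA per cell cannot be told apart in pooled cells.

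These were 2 of 37 genes tested, both lower, where 2.32% of all genes tested were called, 0.59% lower and 1.73% higher. Arrays of the groups did not overlap for 3 of the 37 genes (Sema3c, Sema3e and Plxnb2), against 5.98% of all genes tested. The 10 markers of other interneurons, a list that includes cells not marked by parvalbumin, also differed between these groups: their array means ran between 8.56 and 8.83 in PV-tdTomato striatum and between 9.38 and 11.55 in PV-tdTomato cortex, with 5 of the 10 called lower and 1 called higher. The 6 ependymal markers were all called higher in striatum, with array means between 9.86 and 11.34 there and between 5.96 and 6.41 in cortex, and 3 of 8 markers of striatal projection neurons were called higher, with means between 8.99 and 9.25 in striatum and between 7.09 and 8.27 in cortex. The part of these cells in the differences of Sema3c and Sema3e was not tested. Without the 6 arrays of low Pvalb the difference was -4.66 ± 0.55 for Sema3c (adjusted p = 0.002) and -1.79 ± 0.19 for Sema3e (adjusted p = 0.0012). Without the 8 arrays of high Xist, Sema3c kept a difference of -4.34 ± 0.77 but its adjusted p was 0.095, and Sema3e was at -1.58 ± 0.21 with an adjusted p of 0.04.

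In the PVCre line the membrane-bound semaphorins Sema5a and Sema4f were lower in striatum, and again no gene of the set was higher. Sema5a, a ligand with thrombospondin repeats that can attract or repel axons, was at 9.66, 9.90, 9.52 and 9.65 in PVCre striatum, against 11.15, 11.27, 10.73 and 12.01 in PVCre cortex. The striatal arrays spanned a narrow range below all cortical ones. The difference was -1.61 ± 0.32 (SE, n = 4 arrays per group, adjusted p = 0.0096 by limma). Sema4f, a transmembrane ligand found at glutamatergic synapses, was at 6.77, 6.79, 6.44 and 6.91 in striatum, against 7.62, 7.96, 7.18 and 7.62 in cortex. Its groups did not overlap either, and the difference was -0.87 ± 0.17 (SE, adjusted p = 0.0096).

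The 2 calls among 37 genes stood beside 3.89% of all genes called in this comparison, with 1.04% called lower and 2.85% higher. Arrays did not overlap for 13 of the 37 genes, against 13.4% of all genes tested, and 15 of the 37 had an unadjusted p under 0.05, against 15.4% of all genes tested. Oligodendrocyte markers were at array means of 14.23 to 14.47 in PVCre striatum and 14.83 to 15.25 in PVCre cortex, with none of the 9 called but all 9 at a lower level in striatum (1 with an unadjusted p under 0.05). Means of the 4 oligodendrocyte precursor markers lay between 7.2 and 7.68 in PVCre striatum and between 8.0 and 8.40 in PVCre cortex. None of the 4 was called, and their differences ran from -2.11 to 0.14. Gpr17 and Olig2 were at a lower level in striatum, while Cspg4 and C1ql1 lay within background in both regions. Those of the 12 vascular markers lay between 6.83 and 8.95 in PVCre striatum and between 5.77 and 6.05 in PVCre cortex, with 6 of the 11 tested called higher in striatum. Those of the 6 ependymal markers, all called higher, lay between 11.49 and 13.17 in PVCre striatum and between 5.95 and 6.44 in PVCre cortex. Of 8 striatal projection neuron markers 5 were called higher, with means between 7.85 and 8.69 in PVCre striatum and between 6.43 and 7.04 in PVCre cortex. The part of these cells in the differences was not tested. Without the 6 arrays of low Pvalb, Sema5a was at -1.26 ± 0.17 (adjusted p = 0.0054) and Sema4f at -0.67 ± 0.17 (adjusted p = 0.079). Without the 8 arrays of high Xist, which leaves 1 PVCre array per region assumed to vary like the PV-tdTomato arrays, Sema5a was at -1.37 ± 0.62 (adjusted p = 0.45) and Sema4f at -1.17 ± 0.26 (adjusted p = 0.18).

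**Figure D1:**
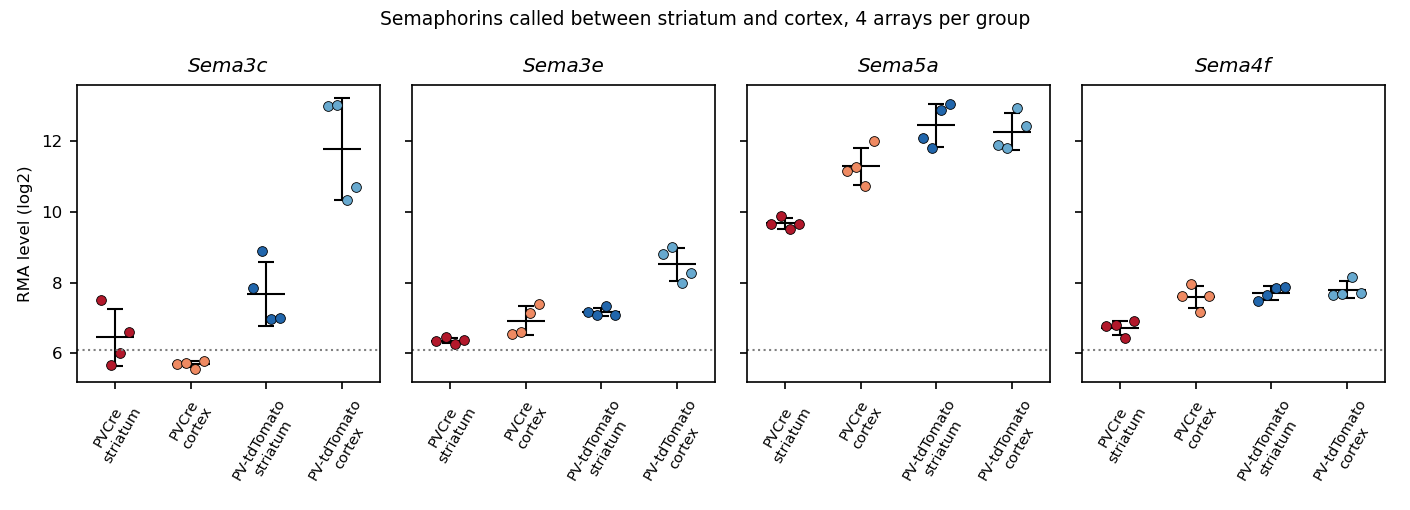
RMA level (log2, vertical axis) of the 4 semaphorins called between regions, with 1 point per array in each of the 4 groups, the mean as a bar, the SD as whiskers and the background level of 6.10 as a dotted line. Sema3c stands at 10.35 to 13.04 in PV-tdTomato cortex and at or near background in PVCre cortex, and Sema5a and Sema4f are lowest in PVCre striatum.

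The same 4 genes were then read in the other line. Sema3c in PVCre cells was at 7.52, 5.67, 6.02 and 6.61 in striatum, against 5.69, 5.73, 5.57 and 5.78 in cortex, so that all cortical arrays lay within background. Its fitted difference between regions there, 0.76 ± 0.61, therefore rests on background values and was not called (adjusted p = 0.59). The fitted difference of the 2 region effects, PVCre minus PV-tdTomato, was 4.86 ± 0.87 for Sema3c (adjusted p = 0.042), the 1 call among 37 genes where 0.195% of all genes tested were called (0.146% higher and 0.0488% lower). With levels under background raised to it, the difference was 4.58 ± 0.89 and missed the threshold (adjusted p = 0.053). The call was lost in 16 of 28 alternative analyses, among them each one that left out a PVCre array, PV-tdTomato striatum replicate 1, 3 or 4, or PV-tdTomato cortex replicate 1 or 2, and its adjusted p ran between 0.0057 and 0.61 while the difference stayed between 3.76 and 5.49. For Sema3e the region difference in PVCre was -0.56 ± 0.22 (adjusted p = 0.21). Sema5a and Sema4f differed between regions by 0.18 ± 0.32 and -0.09 ± 0.17 in PV-tdTomato cells, neither of which was called (adjusted p = 0.97 for each).

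The other ligands gave no call between regions in the main fit. In PVCre cells the replicate block called Sema3d, Sema4d, Sema6a and Sema6d, and array weights called Sema4d, Sema6a and Slit2, all lower in striatum. Sema4d and Sema6a were also called there with the arrays compared alone, and Slit2 without the arrays of low Pvalb. In PV-tdTomato cells, array weights called Sema3a, Sema5b and Sema7a, and Sema3a was called without the arrays of low Pvalb. Sema3a differed there by 0.78 ± 0.35 in the main fit. Sema3d, a class 3 ligand, differed by -1.50 ± 0.67 in PVCre cells (adjusted p = 0.29) and by 0.03 ± 0.67 in PV-tdTomato cells. Sema6a and Sema6d, transmembrane ligands that bind class A plexins, differed by -1.56 ± 0.45 (adjusted p = 0.074) and -0.98 ± 0.40 (adjusted p = 0.24) in PVCre cells. Sema4d, a ligand of Plxnb1, differed by -1.03 ± 0.36 there (adjusted p = 0.16). Sema7a, which is anchored by a lipid and binds Plxnc1 and integrins, differed by -0.76 ± 0.22 in PV-tdTomato cells (adjusted p = 0.11). Among the Slits, Slit2 differed by -1.34 ± 0.55 in PVCre cells (adjusted p = 0.25) and by 0.74 ± 0.55 in PV-tdTomato cells (adjusted p = 0.91). The netrins Ntn1 and Ntn4 differed by at most 0.15 in either line.

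None of the 17 receptors tested was called between regions in either line, although 7 had an unadjusted p under 0.05 by limma in PVCre cells and 1 in PV-tdTomato cells, beside 15.4% and 7.96% of all genes tested. Other settings did call receptors higher in PVCre striatum: Plxna1, Plxna2, Plxnb2, Robo1 and Robo2 with the replicate number as a block, the last 4 of these with array weights, Plxna2 and Robo1 without PVCre cortex replicate 3, and Plxna2 with a random block by the number in the description field. Unc5b, Unc5c, Unc5d and Plxnb3 were each called lower there in 1 or more other settings, among them Unc5c and Unc5d with the replicate block and with array weights, and Unc5b, Unc5c and Plxnb3 with the arrays compared alone. In PV-tdTomato cells, array weights called Plxna1, Plxnd1 and Unc5b, and Plxnb3 and Unc5b were called without the arrays of low Pvalb. Plxnb2 was called higher in PV-tdTomato striatum with the same random block and without PV-tdTomato cortex replicate 4. Plxna2, a receptor for class 6 semaphorins and part of class 3 receptors, had the largest difference among them in PVCre cells, 2.69 ± 0.81 (adjusted p = 0.091). Its PVCre levels were 10.25, 10.63, 11.60 and 11.43 in striatum, against 8.65, 6.89, 10.70 and 6.89 in cortex, so 1 cortical array reached the striatal range. The Slit receptors Robo1 and Robo2 differed by 1.82 ± 0.65 (adjusted p = 0.17) and 1.80 ± 0.76 (adjusted p = 0.26) in PVCre cells and by 0.36 and -0.13 in PV-tdTomato cells. Of the netrin receptors, Unc5c differed by -1.35 ± 0.40 (adjusted p = 0.083) and Dcc by -0.22 ± 0.18 (adjusted p = 0.61) in PVCre cells. Unc5d was within background on all 4 PVCre striatal arrays. Its PVCre cortex mean lay 1.74-fold above the background level, and the difference was not called (adjusted p = 0.084). Plxnb2, a plexin that binds class 4 semaphorins, differed by 0.63 ± 0.20 in PVCre cells (adjusted p = 0.12) and by 0.69 ± 0.20 in PV-tdTomato cells (adjusted p = 0.13). Its arrays did not overlap between regions in either line, beside 13.4% and 5.98% of all genes tested. The median difference in PVCre cells was -0.27 over the 20 ligands tested, 0.07 over the 17 receptors and -0.01 over all genes tested. In PV-tdTomato cells it was -0.13 over the ligands, -0.04 over the receptors and 0.02 over all genes tested.

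**Figure D2:**
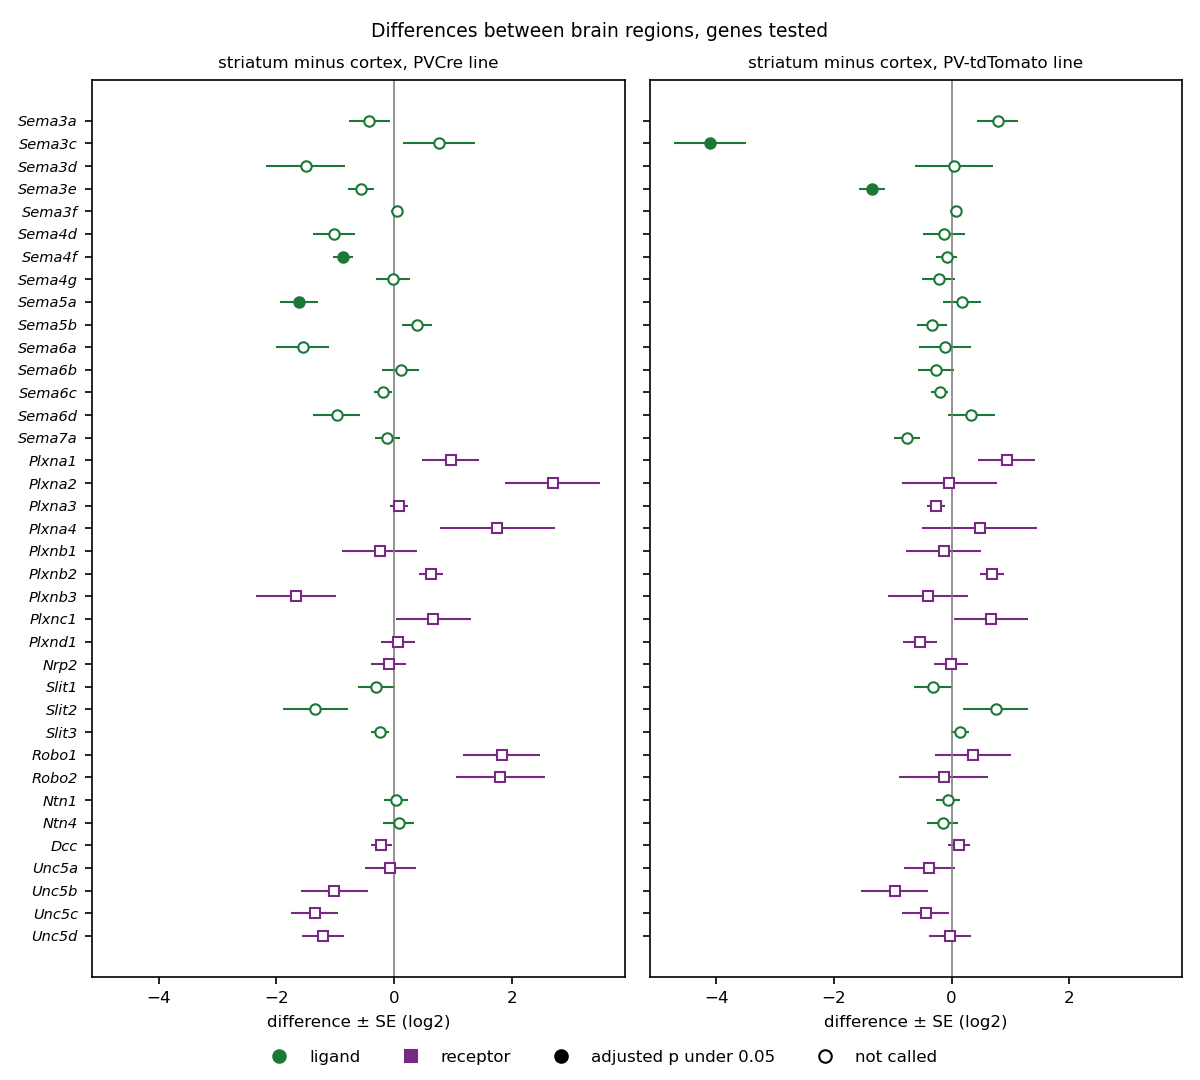
Difference between striatum and cortex (log2, horizontal axis, points with SE) for each of the 37 genes tested, in PVCre cells on the left and PV-tdTomato cells on the right, with ligands as circles, receptors as squares and called genes filled. Sema3c, at -4.10 in PV-tdTomato cells, lies far from the other genes, and only Sema4f, Sema5a, Sema3c and Sema3e are filled.

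Levels of several receptors varied among arrays of 1 group together with neuronal markers. In PVCre cortex, Plxna4, a class A plexin that signals for Sema3a with neuropilin, was at 8.98, 7.24, 10.83 and 7.16 in replicates 1 to 4. In the same arrays Robo1 was at 7.40, 6.53, 9.03 and 6.37, and Robo2 at 8.79, 7.28, 10.07 and 7.43. Gad1, which makes GABA, was at 11.63, 8.88, 13.66 and 7.40, so the 2 arrays low in it were the lowest for the 3 receptors as well. In PV-tdTomato cells, Plxna4 was at 11.87, 11.83, 9.56 and 9.89 in striatum and at 11.99, 11.93, 8.57 and 8.77 in cortex, with replicates 3 and 4 low in both regions. Plxnb3, a plexin of oligodendrocytes and neurons that binds Sema5a, ran the other way: it was at 10.75, 10.54, 13.35 and 13.44 in PV-tdTomato striatum and at 11.44, 11.49, 13.62 and 13.13 in PV-tdTomato cortex. Oligodendrocyte marker means were 12.58 to 13.01 in replicates 1 and 2 of that line and 14.40 to 14.91 in replicates 3 and 4, and those of their precursors 8.44 to 9.71 and 11.35 to 12.25. In PVCre cells Plxnb3 was at 10.12, 9.90, 9.66 and 9.88 in striatum, against 11.19, 11.47, 11.00 and 12.57 in cortex. Sema6a had the same order of arrays within PV-tdTomato striatum, with 12.30, 12.13, 13.75 and 13.85. The part of oligodendrocyte RNA in these levels was not tested.

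**Figure D3:**
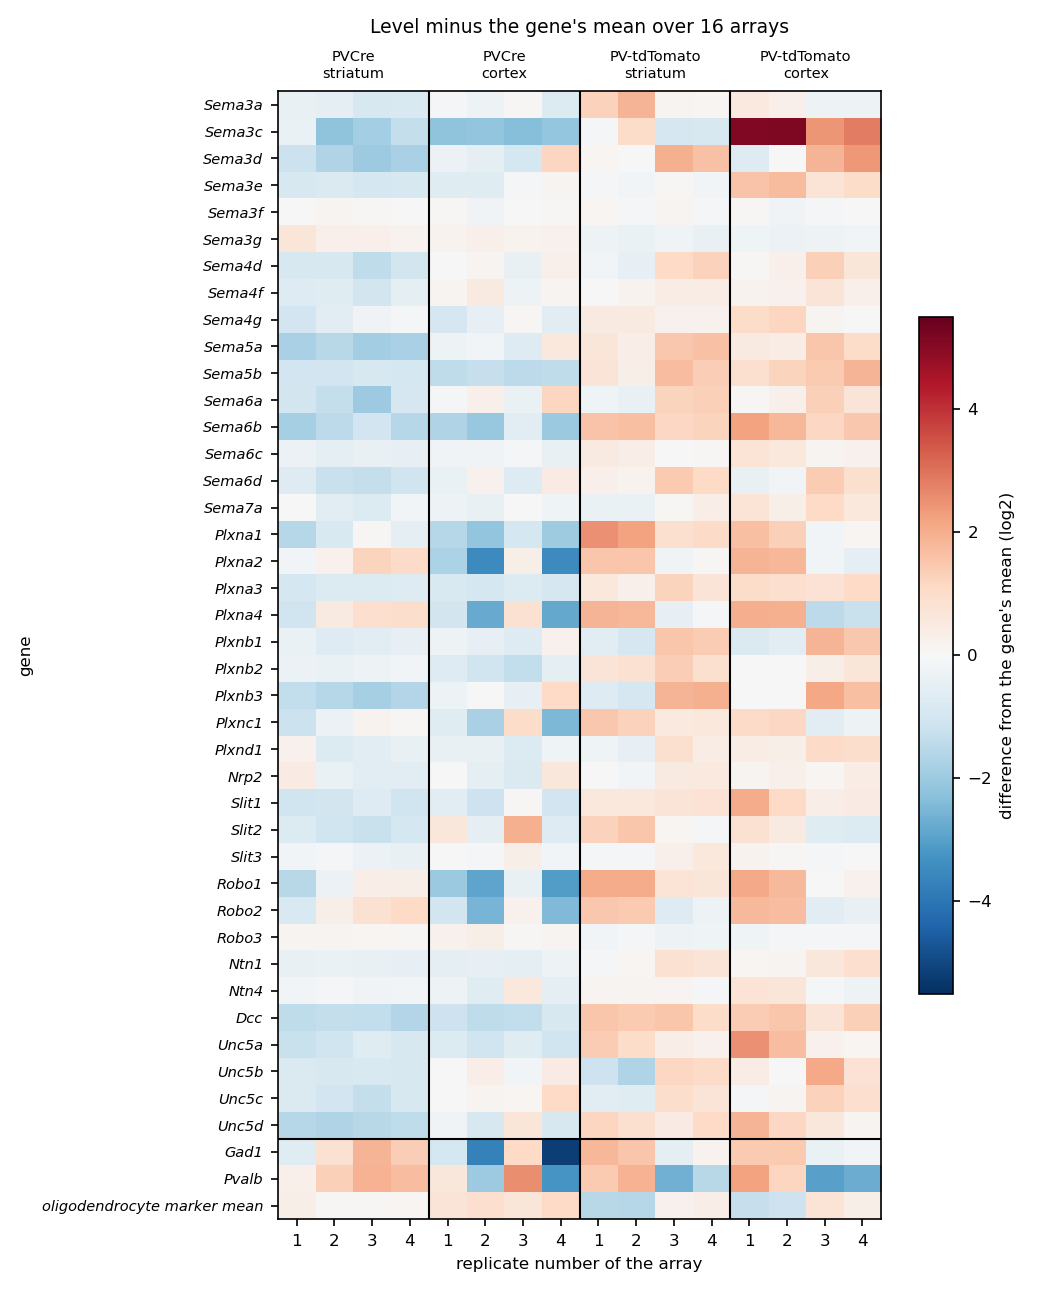
Level of each of the 39 genes minus its mean over 16 arrays (log2, colour from blue for low to red for high), with arrays as columns in 4 groups and Gad1, Pvalb and the oligodendrocyte marker mean as the bottom rows. Plxna2, Plxna4, Robo1 and Robo2 are blue in PVCre cortex replicates 2 and 4, where Gad1 is at 8.88 and 7.40, and Sema3c is darkest in PV-tdTomato cortex replicates 1 and 2.

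The second comparison set the lines against each other within a region. In striatum 25 of the 37 genes were lower in PVCre cells and none was higher, and in cortex 20 were lower and none was higher. Most genes on the array differed as well: 53.4% of all genes tested were called in striatum (35% lower, 18.3% higher) and 53.5% in cortex (34.4% lower, 19.2% higher). The median difference of the 37 was -1.23 in striatum and -1.03 in cortex, beside -0.22 over all genes tested in each region. Arrays did not overlap for 26 of the 37 in striatum and 15 in cortex, against 50.3% and 47.1% of all genes tested. The control probe distance did not overlap between the lines either, and the line and the handling of its arrays cannot be told apart. With quantile normalization between arrays the median over all genes moved to -0.02 in striatum and 0.02 in cortex, and the share of calls that were higher moved to 49.6%, against 34.4% as deposited, in striatum and to 52.1%, against 35.8%, in cortex. The genes of the set gave 19 calls in striatum and 16 in cortex under it, all lower, where 47.9% and 49.9% of all genes were called. Without the filter, Sema3g and Robo3 were called higher in PVCre cells in both regions, where 50.4% and 51% of all genes were called. Sema3g differed by 0.67 in striatum and 0.47 in cortex, and Robo3 by 0.32 and 0.33. Robo3 was within background on every array, and Sema3g on every array but PVCre striatum replicate 1, at 6.16. Without the 6 arrays of low Pvalb, 25 were lower and 1, Unc5b, was higher in striatum, and 20 were lower in cortex. Without the 8 arrays of high Xist, which leaves 1 PVCre array per region, there were 7 calls in striatum and 13 in cortex, all lower.

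Of the 37 genes, 15 were lower in PVCre cells in both regions, 10 were called in striatum and not in cortex, 5 were called in cortex and not in striatum, and 7 were called in neither (Sema3f, Plxna4, Plxnb1, Plxnc1, Nrp2, Ntn4 and Unc5b). Other settings added calls. Plxnc1 was called lower in striatum with array weights, with the arrays compared alone and without the arrays of low Pvalb. In cortex, array weights called Plxnb1, Plxnb3, Sema3d, Sema4d and Sema6d lower, and Plxna4 was called lower without the arrays of low Pvalb. A call in 1 region does not show a difference between regions, and Sema3c was the 1 gene for which that difference was called.

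Among the secreted semaphorins, 3 of 5 class 3 genes were lower in striatum and 2 of 5 in cortex. Sema3c, with the values given above for both lines, had the largest difference of the set in cortex. Because PVCre cortex lay within background, Sema3c was at least 51.2-fold lower there, with measured means of 5.69 ± 0.09 in PVCre cells and 11.78 ± 1.45 in PV-tdTomato cells (SD, n = 4 each, adjusted p = 3.2e-06 by limma) and a fitted difference of -6.09 ± 0.61. In striatum its difference was -1.22 ± 0.61 and was not called (adjusted p = 0.11). With array weights, and without the arrays of low Pvalb, Sema3c was called lower in PVCre striatum as well. Sema3e was lower in both regions without overlap, at -0.81 ± 0.22 in striatum (adjusted p = 0.0062) and at -1.60 ± 0.22 in cortex (adjusted p = 3.9e-05). Sema3d was at 8.99, 8.52, 8.19 and 8.41 in PVCre striatum, against 10.29, 10.15, 12.14 and 11.81 in PV-tdTomato striatum. Cortical levels were 9.86, 9.70, 9.21 and 11.34 in PVCre cells, against 9.46, 10.17, 12.05 and 12.56 in PV-tdTomato cells, and the groups overlapped. It was called in striatum, at -2.57 ± 0.67 (adjusted p = 0.0048), and not in cortex, at -1.03 ± 0.67 (adjusted p = 0.2). Sema3a, the classical growth-cone collapsing ligand, was within background in all PVCre striatal arrays and at least 2.33-fold lower there.

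Of the class 4 to 7 semaphorins, 9 of 10 were lower in striatum and 6 of 10 in cortex. Sema6b, a transmembrane ligand of class A plexins, was at 7.17, 7.55, 7.95 and 7.44 in PVCre striatum, against 10.56, 10.65, 10.15 and 10.22 in PV-tdTomato striatum. In cortex, levels were 7.35, 6.93, 8.43 and 6.97 in PVCre cells, against 11.20, 10.83, 10.12 and 10.47 in PV-tdTomato cells. Neither region showed overlap, and Sema6b was lower, at -2.87 ± 0.31 in striatum (SE, adjusted p = 4.9e-06) and at -3.24 ± 0.31 in cortex (adjusted p = 2e-06). Sema5a, with the values given above, was lower, at -2.78 ± 0.32 in striatum without overlap (adjusted p = 9.5e-06) and at -0.99 ± 0.32 in cortex, where arrays overlapped (adjusted p = 0.018). Sema5b, a relative of Sema5a, was at 6.28, 6.27, 6.48 and 6.37 in PVCre striatum, against 8.06, 7.65, 9.04 and 8.68 in PV-tdTomato striatum. In cortex its PVCre arrays, at 5.96, 6.07, 5.91 and 5.93, were all within background, against 8.22, 8.57, 8.78 and 9.19 in PV-tdTomato cells. No arrays overlapped, and the differences were -2.01 ± 0.25 in striatum (adjusted p = 2e-05) and at least 6.03-fold in cortex (adjusted p = 1.6e-06). Sema4f was lower in striatum, at -0.99 ± 0.17 (adjusted p = 0.00029), and not called in cortex, at -0.21 ± 0.17 (adjusted p = 0.32).

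Sema4g and Sema6c, transmembrane semaphorins with smaller differences, were called in both regions. Sema4g was at 7.5, 7.92, 8.32 and 8.43 in PVCre striatum, against 9.03, 9.04, 8.76 and 8.78 in PV-tdTomato striatum. In cortex it was at 7.63, 8.08, 8.61 and 7.94 in PVCre cells, against 9.54, 9.71, 8.69 and 8.56 in PV-tdTomato cells, where the groups overlapped narrowly. Its differences were -0.86 ± 0.28 in striatum (adjusted p = 0.018) and -1.06 ± 0.28 in cortex (adjusted p = 0.0057). Quantile normalization ended both calls, at -0.39 in striatum (adjusted p = 0.26) and -0.53 in cortex (adjusted p = 0.12), and the replicate block that in striatum (adjusted p = 0.056). Sema6c was at 6.20, 6.04, 6.10 and 6.06 in PVCre striatum, against 7.0, 6.87, 6.51 and 6.59 in PV-tdTomato striatum. Cortical levels were 6.34, 6.31, 6.40 and 6.12 in PVCre cells, against 7.25, 7.11, 6.65 and 6.75 in PV-tdTomato cells. These levels lie close to background, did not overlap, and differed by -0.64 ± 0.15 in striatum (adjusted p = 0.002) and -0.65 ± 0.15 in cortex (adjusted p = 0.0018). Sema4d, Sema6a and Sema6d were called in striatum, at -1.48, -1.78 and -1.84, and Sema7a in cortex, at -0.93. Quantile normalization ended the calls of Sema4d (-0.94, adjusted p = 0.07) and Sema7a (-0.32, adjusted p = 0.28), and without the arrays of low Pvalb, Sema4d was at -0.75, Sema6a at -0.99 and Sema7a at -0.69 (adjusted p = 0.065), the last no longer called.

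Of the 9 plexins, 4 were lower in striatum (Plxna1, Plxna3, Plxnb2 and Plxnb3) and 5 in cortex (Plxna1, Plxna2, Plxna3, Plxnb2 and Plxnd1). Plxna1, a signalling partner of neuropilins, was at 6.99, 7.72, 8.65 and 8.04 in PVCre striatum, against 11.07, 10.78, 9.44 and 9.63 in PV-tdTomato striatum. In cortex, levels were 6.98, 6.40, 7.58 and 6.61 in PVCre cells, against 10.24, 9.87, 8.40 and 8.67 in PV-tdTomato cells. The groups did not overlap in either region, with differences of -2.38 ± 0.49 in striatum (SE, adjusted p = 0.00095) and -2.40 ± 0.49 in cortex (adjusted p = 0.00088). Plxna3, which acts with Nrp2 for Sema3f, was at 6.32, 6.52, 6.51 and 6.58 in PVCre striatum, against 7.84, 7.54, 8.48 and 8.0 in PV-tdTomato striatum. In cortex it was at 6.43, 6.31, 6.51 and 6.36 in PVCre cells, against 8.29, 8.20, 8.08 and 8.36 in PV-tdTomato cells. Arrays within each cortical group were close together, and the differences were -1.48 ± 0.16 in striatum (adjusted p = 4.3e-06) and -1.83 ± 0.16 in cortex (adjusted p = 8.4e-07).

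Plxnb2 was at 7.05, 6.99, 7.08 and 7.21 in PVCre striatum, against 8.06, 8.20, 8.72 and 8.26 in PV-tdTomato striatum. Cortical levels were 6.65, 6.28, 6.03 and 6.86 in PVCre cells, against 7.40, 7.34, 7.71 and 8.05 in PV-tdTomato cells. It did not overlap in either region and was lower, at -1.23 ± 0.20 in striatum (adjusted p = 0.00016) and -1.17 ± 0.20 in cortex (adjusted p = 0.00024). Plxna2 in PV-tdTomato cells was at 11.92, 11.91, 10.19 and 10.45 in striatum and at 12.27, 12.23, 10.25 and 9.88 in cortex. Set against the PVCre values given above, the groups overlapped in both regions, and the difference was -0.14 ± 0.81 in striatum (adjusted p = 0.9) and -2.87 ± 0.81 in cortex (adjusted p = 0.0081). Nrp2, the 1 neuropilin tested, was not called in striatum (-0.49 ± 0.29) or in cortex (-0.40 ± 0.29).

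The Slit ligands were lower in PVCre cells in striatum for 3 of 3 genes and in cortex for Slit1 alone. Slit1 was at 5.82, 5.87, 6.18 and 5.80 in PVCre striatum, against 7.47, 7.5, 7.60 and 7.71 in PV-tdTomato striatum. In cortex, levels were 6.30, 5.77, 6.96 and 5.84 in PVCre cells, against 8.95, 8.0, 7.28 and 7.34 in PV-tdTomato cells. Most PVCre arrays were within background and none reached the PV-tdTomato range, with differences of -1.65 ± 0.32 in striatum (adjusted p = 0.00065) and -1.68 ± 0.32 in cortex (adjusted p = 0.00059). Their receptor Robo1 was at 7.92, 9.10, 9.82 and 9.77 in PVCre striatum, against 11.46, 11.49, 10.18 and 10.12 in PV-tdTomato striatum. In cortex the PVCre values given above stood against 11.51, 11.22, 9.41 and 9.67 in PV-tdTomato cells. Robo1 did not overlap in either region and was lower, at -1.66 ± 0.65 in striatum (adjusted p = 0.044) and -3.12 ± 0.65 in cortex (adjusted p = 0.0011). Robo2 was called in cortex, at -2.07 ± 0.76, and not in striatum, at -0.14 ± 0.76.

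Of the netrin receptors, 4 of 5 were lower in striatum and 3 of 5 in cortex. Dcc, the attractive receptor, was at 6.99, 7.09, 7.06 and 6.77 in PVCre striatum, against 9.90, 9.85, 9.92 and 9.39 in PV-tdTomato striatum. In cortex it was at 7.24, 6.99, 7.03 and 7.52 in PVCre cells, against 9.80, 9.92, 9.12 and 9.72 in PV-tdTomato cells. The lines stood well apart in both regions, and Dcc was lower, at -2.79 ± 0.18 in striatum (SE, adjusted p = 1e-07) and -2.45 ± 0.18 in cortex (adjusted p = 3.2e-07). Unc5a, a repellent netrin receptor, was at 5.67, 5.79, 6.23 and 6.01 in PVCre striatum, against 8.30, 7.91, 7.25 and 7.15 in PV-tdTomato striatum. Cortical levels were 6.14, 5.80, 6.23 and 5.80 in PVCre cells, against 9.40, 8.61, 7.13 and 7.0 in PV-tdTomato cells. The PVCre arrays were near or within background, and the differences were -1.72 ± 0.44 in striatum (adjusted p = 0.0041) and -2.04 ± 0.44 in cortex (adjusted p = 0.0013).

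Unc5d, a further member of that receptor family, was at 5.67, 5.56, 5.69 and 5.83 in PVCre striatum, all within background, against 8.41, 8.12, 7.69 and 8.31 in PV-tdTomato striatum. In cortex, levels were 7.02, 6.35, 7.89 and 6.35 in PVCre cells, against 9.07, 8.37, 7.83 and 7.38 in PV-tdTomato cells. Unc5d was at least 4.1-fold lower in striatum (adjusted p = 6.6e-05) and differed by -1.26 ± 0.36 in cortex (adjusted p = 0.0084), where arrays overlapped. The ligand Ntn1 was at 5.74, 5.82, 5.75 and 5.73 in PVCre striatum, against 6.07, 6.27, 7.01 and 6.86 in PV-tdTomato striatum. In cortex it was at 5.69, 5.70, 5.69 and 5.87 in PVCre cells, against 6.29, 6.30, 6.78 and 7.07 in PV-tdTomato cells. All PVCre arrays were within background, and Ntn1 was at least 1.37-fold lower in striatum (adjusted p = 0.0051) and at least 1.42-fold lower in cortex (adjusted p = 0.0027). With levels under background raised to it, neither call of Ntn1 held (adjusted p = 0.082 in striatum and 0.056 in cortex). Without the arrays of low Pvalb, the fitted difference of Ntn1 in striatum was -0.41 in place of -0.79, and both calls held.

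Leaving out 1 array ended 8 of these line calls. In striatum they were Robo1 (-1.25 to -1.66 without PVCre replicate 1 or 2, PV-tdTomato replicate 1 or 2, or PVCre cortex replicate 1), Slit3 (-0.27 to -0.38 without replicate 3 or 4 of either line), Unc5c (-0.84 to -1.12 without PVCre replicate 2 or 3 or PV-tdTomato replicate 3 or 4), Plxnb3 (-1.66 and -1.69 without PV-tdTomato replicate 4 or 3), Slit2 (-1.45 without PV-tdTomato replicate 2) and Sema4g (-0.68 without PVCre replicate 1). In cortex they were Robo2 (-1.68 to -1.75 without PVCre replicate 2 or 4 or PV-tdTomato replicate 1 or 2) and Sema5a (-0.80 without PVCre replicate 3 and -0.77 without PV-tdTomato replicate 3). Adjusted p-values in these cases were between 0.052 and 0.14. Quantile normalization also ended the striatal calls of Robo1 (-1.13), Slit3 (-0.31), Unc5c (-0.59) and Plxnb3 (-1.70) and the cortical calls of Robo2 (-1.56) and Sema5a (-0.49), with adjusted p-values between 0.084 and 0.33. Without the arrays of low Pvalb, Slit3 (-0.15) and Unc5c (-0.39) were not called, and Plxnb3 and Sema3d were called in striatum at -0.76 and -1.70. The replicate block ended the calls of Robo1 and Slit3 in striatum and Robo2 in cortex, and array weights those of Slit3, Unc5c and Robo2. Slit3 and Robo2 also lost the call with the arrays compared alone, and Robo1 and Robo2 with levels under background raised to it.

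**Figure D4:**
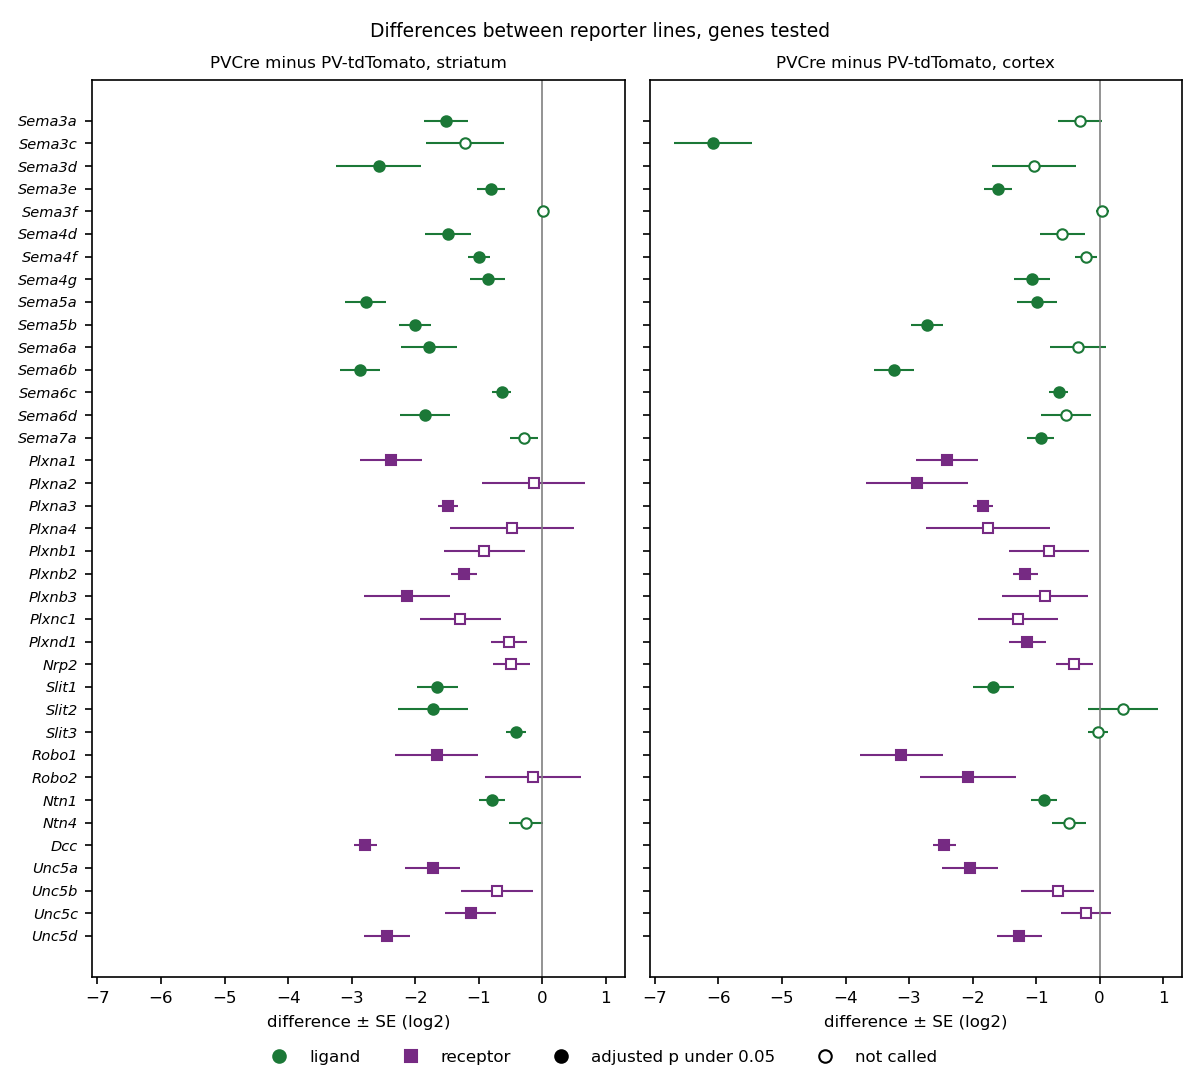
Difference between PVCre and PV-tdTomato cells (log2, horizontal axis, points with SE) for the 37 genes tested, in striatum on the left and cortex on the right, with ligands as circles, receptors as squares and called genes filled. All filled points lie left of 0, and Sema3c in cortex, at -6.09, is the farthest.

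Ligands and receptors were called at these counts: 16 of 20 ligands and 9 of 17 receptors were lower in PVCre striatum, where 35% of all genes tested were lower. In PVCre cortex 10 of 20 ligands and 10 of 17 receptors were lower, where 34.4% of all genes tested were lower. The median line difference in striatum was -1.35 over ligands and -1.23 over receptors, and in cortex -0.76 over ligands and -1.29 over receptors. Over all genes tested it was -0.22 in each region. No test of ligands against receptors was made. Of the 39 genes, 22 were above background on every array, and Sema3f and Robo3 were at or under it on every array.

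Markers of the sorted cells and of other cells moved with the lines too. Of 10 parvalbumin and GABAergic interneuron markers, 2 were called lower in PVCre striatum and 5 in PVCre cortex, and none higher. Their means were 8.88 to 10.21 in PVCre striatum against 9.44 to 11.24 in PV-tdTomato striatum. In cortex they were 6.92 to 10.99 in PVCre cells against 9.27 to 11.86 in PV-tdTomato cells. Of 8 striatal projection neuron markers, 5 were called lower in PVCre striatum and 3 in PVCre cortex. All 10 microglial markers were called higher in PVCre cells in each region, and their means were 7.44 to 8.62 in PVCre striatum against 5.38 to 5.65 in PV-tdTomato striatum, and 7.18 to 9.35 in PVCre cortex against 5.30 to 5.72 in PV-tdTomato cortex. Markers of other interneurons were at 6.39 to 7.22 in PVCre striatum against 8.56 to 8.83 in PV-tdTomato striatum, and at 6.10 to 7.10 in PVCre cortex against 9.38 to 11.55 in PV-tdTomato cortex. Oligodendrocyte precursor markers were at 7.2 to 7.68 in PVCre striatum against 8.44 to 12.25 in PV-tdTomato striatum, and at 8.0 to 8.40 in PVCre cortex against 9.40 to 11.90 in PV-tdTomato cortex. In striatum, 9 of 11 vascular markers tested and 4 of 6 ependymal markers were called higher in PVCre cells, with vascular means between 6.83 and 8.95 in PVCre striatum against 5.77 and 6.14 in PV-tdTomato striatum. Of 9 oligodendrocyte markers, 3 were called higher in PVCre striatum and 6 in PVCre cortex, with cortical means between 14.83 and 15.25 in PVCre cells against 12.90 and 14.91 in PV-tdTomato cells. The part of these cells in the line differences was not tested.

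Beyond the 41 genes, 81 genes of guidance signalling were listed (co-receptors, adaptors, small GTPases, cytoskeletal effectors and 6 other genes of the same families), of which 72 were tested. Between regions, Chl1, an adhesion molecule that partners with neuropilin in Sema3a signalling, was higher in PVCre striatum at 9.77 ± 1.02, against 7.48 ± 1.05 in PVCre cortex (SD, n = 4 each, adjusted p = 0.03 by limma). Rras2, a small GTPase, and Mical3, an enzyme of the family that oxidizes actin downstream of plexins, were lower in PVCre striatum, at -1.98 ± 0.30 (adjusted p = 0.00088) and -1.13 ± 0.27 (adjusted p = 0.031). Between PVCre regions 1 of the 72 was thus higher and 2 were lower, beside 2.85% higher and 1.04% lower of all genes tested. No gene of this list was called between regions in PV-tdTomato cells, where 2.32% of all genes tested were called. There 1 had an unadjusted p under 0.05 by limma, against 7.96% of all genes tested. Between lines, 45 of the 72 were lower and 7 higher in PVCre striatum, beside 35% lower and 18.3% higher of all genes tested. In PVCre cortex 44 were lower and 7 higher, beside 34.4% lower and 19.2% higher. Against a median of -0.22 over all genes tested in each region, those of the 72 genes were -0.85 and -0.90. Of the 5 family genes tested among them, 3 were called higher and 1 lower in PVCre striatum, and 2 higher and 2 lower in PVCre cortex. The family ligands Sema3b and Ntn5 were called higher in PVCre cells in each region. Their group means lay between 5.85 and 6.06 in PVCre cells and between 5.50 and 5.56 in PV-tdTomato cells, all within background. Robo4, a Robo of vessels, was called higher in PVCre striatum (adjusted p = 0.00056), at 6.29 ± 0.46, against 5.35 ± 0.10 in PV-tdTomato striatum (SD, n = 4 each), which is within background. The largest were Dscam, a netrin co-receptor, at -3.96 in striatum and -3.80 in cortex, Gipc1, an adaptor that binds neuropilin, at -3.36 in striatum, and Chl1 at -4.83 in cortex. Dpysl2 and Fyn, a microtubule regulator and a kinase of Sema3a signalling, were lower, at -2.82 each in striatum, and Flrt1, of a family that modulates Unc5 and Robo signalling, and Crmp1 were at -3.06 and -2.98 in cortex.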

How the data were processed

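Gene expression was measured on 16 Affymetrix mouse transcriptome arrays from 5 ng of RNA each, 4 arrays in each of 4 groups. Per the submitters' processing notes, the authors deposited log2 values made by RMA in Affymetrix Expression Console; neither its version nor the genome build is given in the sources used here. The number of arrays limits the precision, and no depth applies. Array medians were 5.972 to 6.133, and no arrays held identical values.

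Of 65956 transcript clusters, 31216 were annotated to 1 gene, 1534 to several and 33206 to none listed, and 874 symbols were updated by Entrez ID. Of several clusters of a gene the 1 with the highest mean was used. The lowest 33.3% of genes by mean (level under 5.53) were left out. Groups were compared with limma 3.58.1 in R 4.3.3, with 1 mean per group over all arrays and Benjamini-Hochberg adjustment over 20495 genes at 0.05. The fit was also run on simulated data with independent arrays and 1 spread per gene. That run cannot speak for arrays that vary together or for groups of unequal spread. Nothing says that pools of a group came from separate litters, so the p-values cover only the spread among them, which may be technical. Where the dimmer group of a called line difference of the set was within background on every array, a lower bound against 6.1 is given, alone or beside the fitted value. The bound is taken from the mean of the brighter group and makes no allowance for its spread.

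The genes, lists and alternatives were chosen with earlier results of these data known, and the alternatives without arrays of high Xist and with levels raised to background were chosen after seeing the data. Values per array are given for the 6 called genes with the largest difference in each comparison and for genes called in at least 2 comparisons. Plxna4, Robo2, Plxnb3, Sema6a and Gad1 were given per array after their values were seen. Up to 4 called genes per comparison were named from the signalling list.

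The titles number the arrays alike in all groups. Deviations from the group mean of equally numbered striatal and cortical PV-tdTomato arrays had a correlation between 0.58 and 0.76 across genes. The best cortical match of striatal replicate 2 was replicate 1, however, and that of striatal replicate 4 was replicate 3. Equal numbers are therefore not shown to be pairs. The main fit used no pairing, and the replicate number was a block in 1 alternative only.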

Additional observations from a re-analysis of the deposited data

Results flagged for a closer look

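The region effect of Sema3c differed between the lines by 4.86 (PVCre minus PV-tdTomato, limma interaction, adjusted p = 0.042; 4.58, adjusted p = 0.053, with levels under background raised to it), from a striatum minus cortex difference of 0.76 in PVCre cells, which was not called, and of -4.10 in PV-tdTomato cells.

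In 6 of the 156 combinations of gene and group, 1 array stood far from the other 3 by Dixon's criterion, which chance meets in about 1 in 20 groups. Unc5c was at 11.59 in PVCre cortex replicate 4, against 10.46 to 10.64 in the others, and Ntn1 was at 5.87 in the same array, against 5.69 to 5.70 and within background throughout. Sema3f was at 5.57 in PVCre cortex replicate 2, against 5.79 to 5.83, all within background. Dcc was at 9.39 in PV-tdTomato striatum replicate 4, against 9.85 to 9.92, and Ntn4 was at 6.56 in the same array, against 6.78. Sema4f was at 8.17 in PV-tdTomato cortex replicate 3, against 7.64 to 7.72.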

How the results depend on the processing

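Of 50 called differences of single genes, none changed direction in 1447 recomputed values. The call was kept in 1352 of these values and lost in 95, and 19 differences kept it throughout. Many of the values could not change direction. Other filters, the replicate block, the arrays compared alone and the loss of an array outside the groups compared all leave the fitted difference as it is. Between regions in PVCre cells, 797 genes and 2 of the set were called, and other settings gave 2483 genes and 11 of the set, 4 of them higher (array weights), 2093 and 14, 5 of them higher (replicate block), 1270 and 5 (random block by the number in the description field), 7 of the set (arrays compared alone), 6 of the set (without the 6 arrays of low Pvalb), and 91 and 0 (without the 8 arrays of high Xist, where limma gave 3 of the set an unadjusted p under 0.05). In PV-tdTomato cells, 476 genes and 2 of the set became 307 genes (a stricter filter on low levels), 1594 and 8 (array weights), 286 genes (arrays compared alone), 4 of the set (random block), 1044 and 5 (low Pvalb out) and 157 and 1 (high Xist out). Between lines, leaving out high Xist gave 3737 genes and 7 of the set in striatum and 6212 and 13 in cortex. For the difference of region effects, 40 genes and 1 of the set became 0 of the set (no filter, 10 with an unadjusted p under 0.05), 131 and 3 (array weights), 128 and 2 (replicate block), 103 and 2 (random block), 154 and 3 (low Pvalb out), 64 and 0 (levels under background raised to it, 8 of the set with an unadjusted p under 0.05) and 0 and 0 (high Xist out, 1540 genes and 4 of the set with an unadjusted p under 0.05). Leaving out each array in turn gave 512 to 827 genes and 2 to 4 of the set between regions in PVCre cells, 340 to 499 and 2 to 3 in PV-tdTomato cells, and 21 to 69 and 0 to 1 for their difference; between lines it gave 9882 to 11093 and 22 to 26 in striatum and 9873 to 11108 and 19 to 22 in cortex. PVCre regions had 512 genes without cortex replicate 2 and 526 without striatum replicate 4, and 4 of the set without cortex replicate 3. The cause was not tested. The share of calls that were higher in PVCre regions, 73.3%, was 52.9% with the replicate block, 56.6% with the arrays compared alone, 57.3% with array weights and 59.6% without low Pvalb, and between lines without a filter it was 45% in striatum and 47.3% in cortex. The replicate block changed no call of the set between PV-tdTomato regions. In PVCre regions same-numbered arrays correlated at r = -0.29 to 0.69. Between lines they correlated at -0.43 to -0.08 in striatum and -0.64 to 0.5 in cortex. The numbers are not known to pair arrays in any comparison. Genes near background, such as Ntn1 and Sema3f, have differences that signal over background limits. Restricting the fit to the arrays compared does not apply to the difference of region effects.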
